A study of Mus musculus with 4 samples.

Results

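The transcripts described here encode the path from insulin receptor docking proteins through Akt and mTOR to the control of translation: Irs1, Irs2, Akt1, Akt2, Mtor, Rps6kb1, Eif4ebp1, Eif4ebp2, Eif4e and Foxo1. These 10 genes were taken by their GENCODE symbol from the 55401 genes counted in each library, and all 10 had enough reads to be tested. The libraries were poly(A) RNA of semimembranosus, a hindlimb muscle, from C57BL/6 mice of 8 weeks. All mice had undergone surgery that tied the left external iliac vein over a needle to narrow it (iliac vein stenosis, IVS). The IVS group (2 libraries) was given saline daily into the stomach, and the IVS_diosmin group (2 libraries) was given diosmin, a plant flavonoid taken for vein disease, at 40 mg per kg per day. Both groups carried the stenosis, so the comparison asks what differed with the drug and holds no unoperated muscle. The labels do not say whether the replicates of a group were separate animals, so the p-values reflect the spread among these 4 libraries alone, and that spread could be technical.

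Insulin or IGF1 binding to its receptor leads to phosphorylation of the docking proteins IRS1 and IRS2, which bring PI3-kinase to the membrane and so activate the kinase Akt. Akt releases the brake on mTOR complex 1, and it keeps the transcription factor FOXO1 out of the nucleus. Active mTOR complex 1 phosphorylates S6 kinase and the 4E-BPs. An unphosphorylated 4E-BP holds the cap-binding protein eIF4E and blocks the start of cap-dependent translation, so phosphorylation of 4E-BP sets eIF4E free. In skeletal muscle this path is known for its part in fibre growth, and FOXO1 for its part in atrophy and in the fasting response. Much of the path is run by phosphorylation, which RNA counts do not measure.

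Irs1 and Irs2 encode the docking proteins at the head of the path, and their start regions are shown because both carried the same pair of short motifs close together. The motifs were an E-box (CACGTG) and TGTTTTG, a sequence of the type bound by FoxO factors in insulin-responsive genes. They were searched on both strands of RefSeq windows that reach from 250 bases before to 50 bases after each transcript start (GRCm38.p6), and capitals mark the matches. Each stretch runs from 140 to 11 bases before the start on the minus strand, Irs1 at chr1:82291450-82291579 and Irs2 at chr8:11008940-11009069. These RefSeq starts lie upstream of the GENCODE genes whose reads were counted (positions below), by far more for Irs2 than for Irs1.
Irs1: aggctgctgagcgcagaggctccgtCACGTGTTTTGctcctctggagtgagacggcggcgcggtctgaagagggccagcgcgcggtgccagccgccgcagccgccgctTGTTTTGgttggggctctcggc
Irs2: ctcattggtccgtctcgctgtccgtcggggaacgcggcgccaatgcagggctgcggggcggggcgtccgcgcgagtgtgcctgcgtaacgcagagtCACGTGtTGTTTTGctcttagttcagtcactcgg
In Irs1 the E-box began 115 bases before the start and shared bases with a TGTTTTG match that began at 111, and another TGTTTTG match began at 32. In Irs2 the E-box began at 44 and TGTTTTG at 37. Of all 32851 windows, 7.15% held CACGTG, 6.28% held TGTTTTG and 0.408% held both. The 14 windows of 9 members included both motifs in 2, those of Irs1 and Irs2. CACGTG alone was in 1 of the windows of Eif4e. Eif4ebp1 had no window in the table. The motifs were chosen after the values were seen, and a match describes the letters only.

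The gene counts of the libraries ran from 13056650 to 15324354. The 6 muscle fibre markers (such as Acta1 and Ckm) summed to 53048 to 66136 CPM (read counts scaled to library size after TMM normalisation), so the defining genes of the labelled tissue were abundant in every library. Other features of the libraries moved with the groups. The slow fibre markers summed to 27.7 and 25.2 CPM in IVS replicates 1 and 2 and to 3209 and 1210 CPM in IVS_diosmin replicates 1 and 2, with 5 of 6 higher by the test. The endothelial markers summed to 489 and 537 CPM in IVS and to 282 and 254 CPM with diosmin, with 5 of 8 lower. The share of gene counts on 1 rRNA gene was 4.14% and 3.80% in IVS and 1.16% and 0.936% with diosmin. Of 4 RNA quality signs 2 were lower with diosmin by the test. Reads aligned to more than 1 place made up 37.7% and 38.8% of reads in IVS and 45.6% and 43.6% with diosmin, and unaligned reads 2.75% and 2.89% against 1.50% and 1.42%. No listed marker was at 0 in all libraries. IVS replicate 2 stood apart in several lists, with Schwann cell markers at 175 CPM against 30.5 to 87.7 CPM in the other libraries and adipocyte markers at 607 CPM against 281 to 354 CPM.

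Of the 10 genes, 1 rose with diosmin and none fell (edgeR quasi-likelihood test, adjusted p under 0.05). Among all 13533 tested genes 2.96% passed (1.17% higher and 1.78% lower). The gene that rose was Eif4ebp1, which encodes the translation repressor 4E-BP1. The values of both diosmin libraries lay above those of both IVS libraries for 5 genes (Eif4ebp1, Eif4ebp2, Eif4e, Mtor and Rps6kb1) and below them for Foxo1, and the groups overlapped for Irs1, Irs2, Akt1 and Akt2. Groups that do not overlap are common here, at 47.5% of all tested genes (23.4% higher and 24.1% lower), so the count of 6 in 10 is near the background. The median log2 fold change of the 10 genes was 0.33, against 0.0064 over all tested genes.

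**Figure D1:**
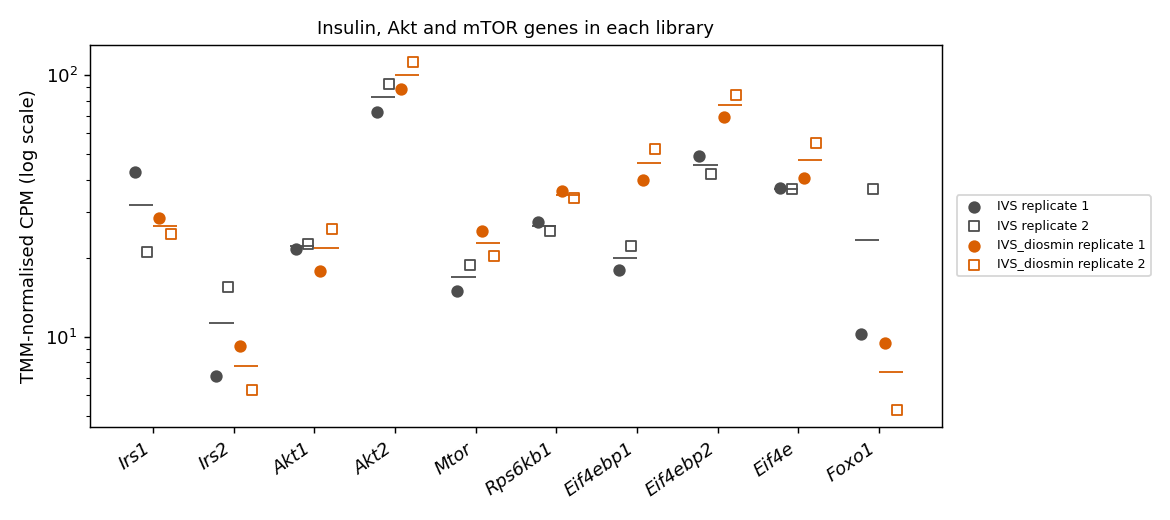
TMM-normalised CPM (log axis) of the 10 genes in each of the 4 libraries, with a horizontal bar at the mean of each group. Eif4ebp1 is at 18.1 and 22.2 CPM in IVS and at 39.8 and 52.4 CPM with diosmin, while Foxo1 is high in IVS replicate 2 only (36.9 CPM).

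Eif4ebp1 (mm10 chromosome 8, 27260329 to 27276674, plus strand) was covered by 316 and 273 reads in IVS replicates 1 and 2 and by 516 and 755 reads in IVS_diosmin replicates 1 and 2. These were 18.1 and 22.2 CPM in IVS and 39.8 and 52.4 CPM with diosmin. Both diosmin libraries were high and the groups were well apart. The mean went from 20.1 ± 2.9 to 46.1 ± 8.9 CPM (SD, n = 2 libraries each), a log2 fold change of 1.20 ± 0.23 (SE, 95% interval 0.71 to 1.69, edgeR adjusted p = 0.0169), which ranked it 135 among the tested genes by p. In a bulk sample more transcript per cell and more of the cells that hold it cannot be told apart. Slow fibre markers were higher, and endothelial markers and the rRNA share lower, in the same diosmin libraries (values above), and their part in the change was not tested. The call rested on all 4 libraries: leaving out any 1 of them kept the direction (log2 0.97 to 1.38) but gave an adjusted p between 0.0761 and 0.0876.

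Eif4ebp2 encodes 4E-BP2, the sister repressor with the same eIF4E-binding role. It lies on chromosome 10 (61428491 to 61452661, minus strand). Its values were 49.3 and 41.9 CPM in IVS and 69.2 and 84.3 CPM with diosmin, both diosmin libraries again above both IVS libraries. It did not pass (log2 0.75 ± 0.21, 95% interval 0.30 to 1.20, edgeR adjusted p = 0.0761), though it did with DESeq2 (adjusted p = 0.0355). The transcript of the third family member, Eif4ebp3, named here to complete the family after its counts were seen, had 1 and 0 reads in IVS and 6 and 0 with diosmin, too few to test.

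Eif4e, the cap-binding protein that the 4E-BPs hold (chromosome 3, 138526179 to 138559696, plus strand), was at 37.0 and 36.8 CPM in IVS and at 40.4 and 54.9 CPM with diosmin. The IVS libraries were nearly equal, and diosmin replicate 1 was only slightly above them. The difference did not pass (log2 0.37 ± 0.22, 95% interval -0.10 to 0.84, adjusted p = 0.433). Levels of different genes are compared per length, as CPM per kb of exon. The length is that of all annotated exons of a gene together, not of the transcripts present. The order of genes on this scale depends on that choice. On that scale the sum of Eif4ebp1 and Eif4ebp2 was 2.72 and 2.83 times the level of Eif4e in IVS replicates 1 and 2, and 4.47 and 4.21 times with diosmin. On this scale the summed repressor transcripts thus exceeded the target transcript in every library, and by more in the diosmin libraries. Eif4ebp1 alone was 0.964 and 1.39 times Eif4ebp2 in IVS and 1.51 and 1.64 times with diosmin, so the IVS libraries differed over which of the sisters was higher. With 2 libraries against 2, an exact permutation test cannot go below p = 0.333, and these ratios are given without a test.

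**Figure D2:**
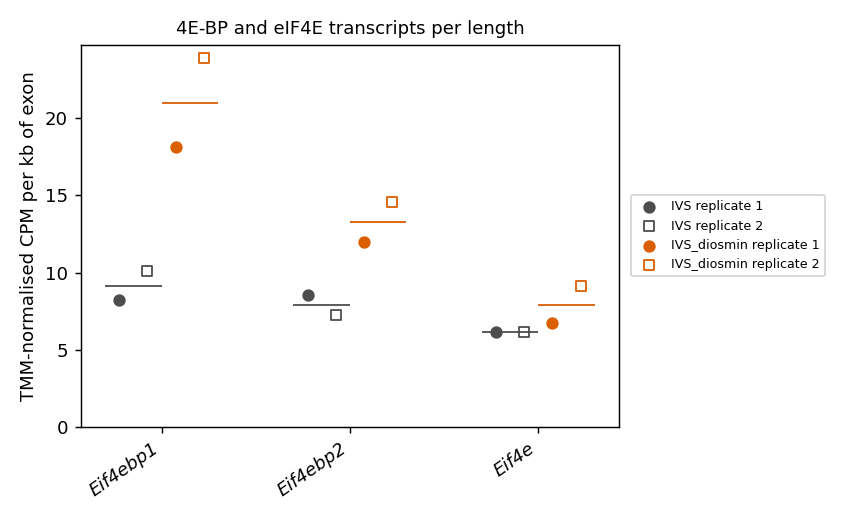
Levels per length (TMM-normalised CPM per kb of exon, linear axis from 0) of Eif4ebp1, Eif4ebp2 and Eif4e in each library, with a bar at each group mean. Eif4ebp1 goes from 8.23 and 10.1 in IVS to 18.1 and 23.9 with diosmin, while Eif4e stays between 6.13 and 9.14.

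Mtor, the kinase of both mTOR complexes (chromosome 4, 148448611 to 148557683), was at 15.0 and 18.9 CPM in IVS and 25.4 and 20.3 CPM with diosmin. Diosmin replicate 2 was close to IVS replicate 2, and the difference did not pass (log2 0.44 ± 0.23, adjusted p = 0.379). Rps6kb1 encodes S6 kinase 1, which phosphorylates the ribosomal protein S6 (chromosome 11, 86498871 to 86544805). It was at 27.6 and 25.5 CPM in IVS and 36.0 and 33.9 CPM with diosmin, with replicates close together in each group. It did not pass either (log2 0.40 ± 0.20, 95% interval -0.04 to 0.84, adjusted p = 0.356). The exons of Rps6kb1 share 155 of 8658 bases with Rnft1 on the opposite strand, and those reads cannot be assigned without strand.

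Akt2, the Akt isoform best known for insulin-stimulated glucose uptake in muscle (chromosome 7, 27591552 to 27640826), was at 72.5 and 92.3 CPM in IVS and 88.8 and 112 CPM with diosmin. The groups overlapped and the difference did not pass (log2 0.29 ± 0.22, 95% interval -0.18 to 0.76, adjusted p = 0.561). Akt1, the broadly expressed isoform tied to growth (chromosome 12, 112653821 to 112674884), was at 21.8 and 22.6 CPM in IVS and 17.8 and 25.9 CPM with diosmin. Its diosmin libraries lay on either side of the IVS libraries (log2 -0.02 ± 0.24, 95% interval -0.53 to 0.49, adjusted p = 0.980). Per length, Akt2 stood above Akt1 in every library, by 1.91 and 2.35 times in IVS and by 2.87 and 2.50 times with diosmin.

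Irs1 (chromosome 1, 82233101 to 82291416) was at 42.6 CPM in IVS replicate 1, at 21.1 CPM in IVS replicate 2 and at 28.6 and 24.7 CPM with diosmin. The diosmin values lay between those of the IVS libraries, and the difference did not pass (log2 -0.26 ± 0.30, adjusted p = 0.739). Its direction turned to 0.33 without IVS replicate 1. The level of Irs1 is uncertain, because its exons share 2822 of 9144 bases with Gm9747 on the opposite strand, which had 640 and 271 reads in IVS and 324 and 327 with diosmin.

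Irs2 (chromosome 8, 10984681 to 11008458) showed the reverse order of the IVS libraries, with 7.09 CPM in replicate 1 and 15.5 CPM in replicate 2. It was at 9.25 and 6.25 CPM with diosmin (log2 -0.54 ± 0.38, adjusted p = 0.539). Without IVS replicate 2 the direction turned to 0.12. Irs2 exons share 162 of 6323 bases with 9530052E02Rik on the opposite strand. The ratio of Irs1 to Irs2 per length was 4.15 in IVS replicate 1, 0.941 in IVS replicate 2, and 2.14 and 2.74 with diosmin. Irs1 and Irs2 thus ran in opposite orders across the IVS libraries, though the level of Irs1 is uncertain (overlap with Gm9747, above).

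Foxo1 (chromosome 3, 52268336 to 52353221), the transcription factor that Akt keeps out of the nucleus, was at 10.3 CPM in IVS replicate 1 and 36.9 CPM in IVS replicate 2, and at 9.48 and 5.28 CPM with diosmin. IVS replicate 2 was far above the other libraries, and IVS replicate 1 was close to diosmin replicate 1. Foxo1 exons share 674 of 8665 bases with Gm20402 on the opposite strand, and reads there cannot be assigned without strand. The log2 fold change was the largest in size among the 10 genes in this fit but had the widest error and did not pass (-1.67 ± 0.68, 95% interval -3.43 to 0.09, adjusted p = 0.321). It was -0.49 (adjusted p = 0.737) without IVS replicate 2 and -2.33 (adjusted p = 0.00197) without IVS replicate 1, so its size and its call moved with which IVS library was kept. With all 4 libraries and no filter on low counts it passed (-1.68, adjusted p = 0.0109). The same library, IVS replicate 2, was the highest of the 4 in Schwann cell and adipocyte markers (sums above). That library was also highest in endothelial (537 CPM), fibro-adipogenic progenitor (307 CPM) and macrophage (35.2 CPM) markers. It was not the highest in muscle fibre, slow fibre, smooth muscle or satellite cell markers. The part of these cells in the value of Foxo1 was not tested.

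**Figure D3:**
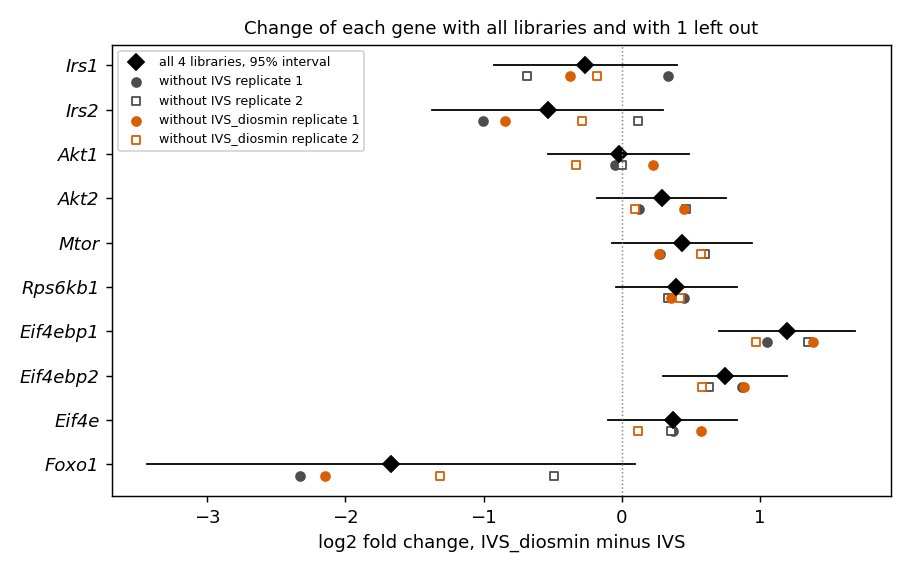
Log2 fold change (IVS_diosmin minus IVS) of each gene with all 4 libraries (diamond, 95% interval) and with 1 library left out (circles and squares). The interval of Eif4ebp1 runs from 0.71 to 1.69, and Foxo1 moves from -2.33 to -0.49 depending on which IVS library is left out.

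Per length, Akt2 was the most abundant of the 10 in both IVS libraries (10.2 and 12.9 CPM per kb of exon), ahead of Eif4ebp1 (8.23 and 10.1) and Eif4ebp2 (8.53 and 7.25), whose ranges overlapped. Eif4e (6.16 and 6.13) and Akt1 (5.32 and 5.51) followed. Irs1 (4.66 and 2.31) overlapped Rps6kb1 (3.19 and 2.95). Mtor (1.48 and 1.86), Irs2 (1.12 and 2.45) and Foxo1 (1.19 and 4.26) were not separated from each other, and Foxo1 and Irs2 also reached into the range of Irs1. With diosmin Eif4ebp1 led (18.1 and 23.9), above Akt2 (12.5 and 15.8) and Eif4ebp2 (11.97 and 14.6), which overlapped each other. Foxo1 (1.09 and 0.609) and Irs2 (1.46 and 0.988), which also overlapped, were lowest.

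The surrounding path was described with 11 lists of 9 to 25 genes, which hold the 10 genes as well. Of 171 tested genes in these lists 4 passed (2.34%, against 2.96% of all tested genes), 2 higher and 2 lower, with a median log2 fold change of 0.10. An unadjusted p under 0.05 was reached by 35 of the 171, against 16.8% of all tested genes (2276 of 13533), and the counts at that level in single lists below are to be read against this share. The 4 genes that passed the adjusted threshold were Eif4ebp1, Inpp4b, Ddit4l and Ctsl. By leaving out 1 library at a time the count ranged from 0 (without IVS_diosmin replicate 1) to 5 (without IVS replicate 1), and was 1 without IVS replicate 2 and 2 without IVS_diosmin replicate 2. Values of genes that did not pass are given below as log2 fold changes with adjusted p.

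**Figure D4:**
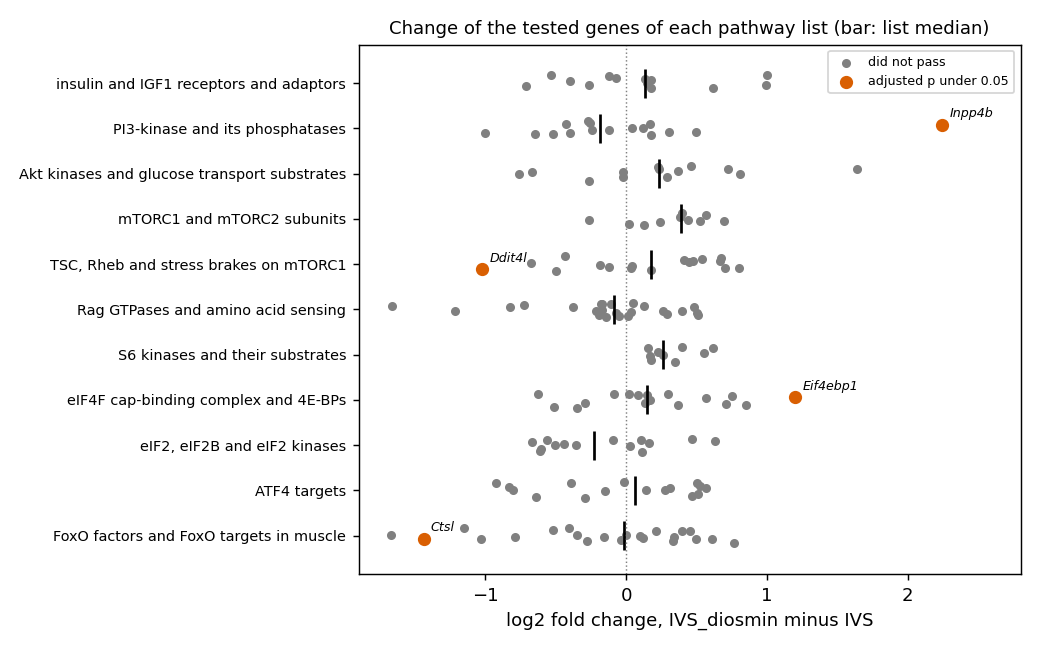
Log2 fold change (IVS_diosmin minus IVS) of every tested gene in each of 11 pathway lists, with a black bar at the list median and large points for the 4 genes past the threshold (Inpp4b and Eif4ebp1 higher, Ddit4l and Ctsl lower). The mTOR complex and S6 kinase lists have medians of 0.39 and 0.26.

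At the receptor, 0 of 13 tested genes passed with edgeR (3 at an unadjusted p under 0.05, against 16.8% of all tested genes), and 0 passed with DESeq2 or limma-voom. The genes of smallest p were adaptors that restrain insulin signalling, in opposite directions: Grb14 (log2 0.99, adjusted p = 0.117) and Grb10 (log2 -0.71, adjusted p = 0.139). Of the receptors, both chosen after their values were seen, the insulin receptor Insr was at 34.2 and 29.2 CPM in IVS and 55.7 and 41.4 CPM with diosmin (log2 0.61, adjusted p = 0.171), and the IGF1 receptor Igf1r at 14.4 and 14.7 CPM against 16.04 and 11.7 CPM (log2 -0.07, adjusted p = 0.929).

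Among PI3-kinase subunits, lipid phosphatases and related genes such as Phlpp1, 1 of 16 rose and none fell, against 2.96% of all tested genes that passed. An unadjusted p under 0.05 was reached by 2 of the 16, against 16.8% of all tested genes. Inpp4b, a phosphatase that removes a phosphate from a PI3-kinase product, had 28 and 12 reads in IVS and 119 and 48 with diosmin. This was 1.60 and 0.9751 CPM against 9.17 and 3.33 CPM, highest in diosmin replicate 1 (log2 2.24 ± 0.54, edgeR adjusted p = 0.0462). It also passed with DESeq2 (adjusted p = 0.00883) and under the other scalings and filters. It did not pass with limma-voom (adjusted p = 0.163), with edgeR without robust estimation (0.0663) or with the edgeR replicate block (0.107). With 1 library left out its log2 fold change ranged from 1.35 (without IVS_diosmin replicate 1) to 2.78 (without IVS_diosmin replicate 2). Phlpp1, a phosphatase that acts on Akt itself, was at 11.5 and 11.2 CPM in IVS and 5.17 and 6.18 CPM with diosmin and did not pass (log2 -1.003, adjusted p = 0.0937).

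Of the Akt kinases and their glucose transport substrates 0 of 13 passed with edgeR (4 at an unadjusted p under 0.05, against the same 16.8%), and 1 did with DESeq2 and 1 with limma-voom. Rab10, a GTPase of glucose transporter traffic (log2 0.81, adjusted p = 0.0633), and Gsk3a, a glycogen synthase kinase that Akt inhibits (log2 0.72, adjusted p = 0.0941), had the smallest p. The DESeq2 call was Rab10 (adjusted p = 0.0164). Rab10 did not pass with limma-voom (adjusted p = 0.0733), whose call was another gene of the list. Gsk3a shares 820 of 2900 exon bases with an antisense gene, which makes its count uncertain. The insulin-responsive glucose transporter Slc2a4 (GLUT4), picked with its values in view, showed a log2 fold change of -0.02.

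Of the mTOR complex subunits 9 of 10 tested genes had a higher mean with diosmin (log2 above 0), against 6834 of all 13533 tested genes, and the list median was 0.39. With scaling by the total gene count alone 8 of 10 were above 0 and the median was 0.27. With 1 library left out 7 (without IVS replicate 1) to 9 (without IVS_diosmin replicate 2) of 10 were above 0. None passed with edgeR (0 of 10, with 2 at an unadjusted p under 0.05, a share near the 16.8% of all genes), DESeq2 (0) or limma-voom (0). The genes of smallest p were inhibitory subunits. Deptor was at 17.8 and 21.6 CPM in IVS and 30.7 and 33.2 CPM with diosmin (log2 0.70, adjusted p = 0.110). Its exons share 303 of 8874 bases with Gm9920 on the opposite strand. Akt1s1, which encodes the Akt substrate PRAS40, was at 67.4 and 64.9 CPM in IVS and 91.9 and 104 CPM with diosmin (log2 0.56, adjusted p = 0.159).

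Upstream regulators of mTOR complex 1 (brakes, together with its activator Rheb) included 1 of 17 genes that fell and none that rose. Of all tested genes 2.96% passed. At an unadjusted p under 0.05 there were 6 of the 17, against 16.8% of all tested genes, and the list was not tested as a set. Ddit4l, a stress-induced inhibitor of mTOR complex 1 also called REDD2, went from 273 and 191 CPM in IVS to 125 and 104 CPM with diosmin (log2 -1.02 ± 0.23, edgeR adjusted p = 0.0349). The groups did not overlap, but the adjusted p was 0.0581 to 0.198 when any 1 library was left out. Its relative Ddit4 (REDD1), picked with its values in view, had 31.0 and 58.2 CPM in IVS and 26.4 and 29.1 CPM with diosmin (log2 -0.68, adjusted p = 0.237), highest in IVS replicate 2. Prkaa2, the muscle catalytic subunit of AMP kinase, was at 33.7 and 25.1 CPM in IVS and 42.7 and 60.0 CPM with diosmin (log2 0.80, adjusted p = 0.0978).

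Rag GTPases and amino acid sensing genes had 0 of 24 past the threshold with edgeR (3 at an unadjusted p under 0.05, below the share of 16.8% in all genes), DESeq2 (0) and limma-voom (0), and a median of -0.09. Slc3a2, the heavy chain of amino acid transporters (log2 -0.83, adjusted p = 0.0624), and Lamtor2, a subunit of the lysosomal Ragulator anchor (log2 -0.73, adjusted p = 0.0841), had the smallest p.

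Downstream, all 9 tested S6 kinase genes and substrates had a log2 fold change above 0 under each scaling tried. Of all 13533 tested genes 6834 were above 0 in the main fit. The list median was 0.26 (0.16 with the total gene count alone). None passed with edgeR (0 of 9, with 2 at an unadjusted p under 0.05, against 16.8% of all genes), DESeq2 (0) or limma-voom (0). Eif4b, an initiation factor that S6 kinase phosphorylates, was at 63.8 and 74.8 CPM in IVS and 94.1 and 118 CPM with diosmin (log2 0.62, adjusted p = 0.148). Eef2, the elongation factor whose kinase S6 kinase inhibits, was at 397 and 536 CPM in IVS and 575 and 794 CPM with diosmin (log2 0.55, adjusted p = 0.253). Rps6kb2, which encodes S6 kinase 2 and was picked with its values in view, had 39.8 and 44.0 CPM in IVS and 52.4 and 42.2 CPM with diosmin. Per length it stood above Rps6kb1, at a mean over all libraries of 8.63 against 3.55 CPM per kb of exon.

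In the cap-binding list 1 of 17 genes rose, Eif4ebp1, and none fell, with a median of 0.15 (2.96% of all tested genes passed). DESeq2 called 3 of the 17 and limma-voom 1. At an unadjusted p under 0.05 there were 6 of the 17, against 16.8% of all tested genes, and the list was not tested as a set. The scaffold Eif4g1, which competes with the 4E-BPs for eIF4E, did not pass (log2 0.30, adjusted p = 0.568), nor did Eif4a1, the helicase of the complex (log2 -0.52, adjusted p = 0.214). Mknk2, a kinase that phosphorylates eIF4E, was at 97.5 and 119 CPM in IVS and 183 and 171 CPM with diosmin and did not pass (log2 0.71, adjusted p = 0.0924). The last 3 genes were chosen after their values were seen.

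The other arm of translation control acts on eIF2, the factor that delivers the initiator tRNA. Of 14 tested eIF2, eIF2B and eIF2 kinase genes 0 passed with edgeR (2 at an unadjusted p under 0.05, near the 16.8% of all genes), DESeq2 (0) or limma-voom (0). The smallest p were those of Eif2ak1, the heme-regulated eIF2 kinase (log2 -0.51, adjusted p = 0.213), and Ppp1r15a, which directs a phosphatase to eIF2 (log2 -0.67, adjusted p = 0.236). Eif2ak1 exons share 487 of 5670 bases with Aimp2 and 172 with Ankrd61, both on the opposite strand. Eif4ebp1 is also known as a target of ATF4, the transcription factor made when eIF2 is phosphorylated. Of 16 tested ATF4 list genes 0 passed with edgeR, 0 had an unadjusted p under 0.05 (16.8% of all genes did), and 0 passed with DESeq2 or limma-voom. Only 10 genes of this list had at least 10 reads in every library, and a part of ATF4 in the change of Eif4ebp1 was not tested. Atf4 itself, picked with its values in view, was at 97.3 and 105 CPM in IVS and 88.6 and 93.5 CPM with diosmin (log2 -0.15, adjusted p = 0.774). Ddit3 and Chac1, stress-induced targets of ATF4, had log2 fold changes of 0.51 (adjusted p = 0.328) and 0.51 (adjusted p = 0.361). Ddit3 exons share 105 of 1713 bases with another gene entry of the same name and 68 with Mars on the opposite strand.

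Of 22 FoxO factors and FoxO targets 1 fell and none rose, with a median of -0.02 (2.96% of all tested genes passed). An unadjusted p under 0.05 was reached by 5 of the 22, against 16.8% of all tested genes. Ctsl, the lysosomal protease cathepsin L and a FoxO target in wasting muscle, went from 64.2 and 84.9 CPM in IVS to 27.4 and 27.6 CPM with diosmin (log2 -1.44 ± 0.22, edgeR adjusted p = 0.00491). It missed the threshold without IVS replicate 2 (adjusted p = 0.0581) and without IVS_diosmin replicate 1 (0.112). Its exons share 1742 of 6489 bases with the antisense gene Gm47123, so its count is uncertain. Txnip, an inhibitor of glucose uptake, was at 616 and 370 CPM in IVS and 268 and 213 CPM with diosmin. It did not pass (log2 -1.03, edgeR adjusted p = 0.0530), nor with limma-voom (adjusted p = 0.0654). Txnip did pass with DESeq2 (adjusted p = 0.00360), with the total gene count alone (edgeR, 0.0290) and under both other filters on low counts. With 1 library left out its log2 fold change ranged from -0.62 (without IVS replicate 1) to -1.36 (without IVS replicate 2). It shares 606 of 3123 exon bases with the antisense gene Gm15441. Ctsl and Txnip are expressed in many cell types, endothelium among them, and the endothelial marker sums were lower in the same libraries. The part of these cells was not tested.

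The muscle ubiquitin ligases known as FoxO targets leaned in opposite directions without passing. The genes of this paragraph other than Foxo1 and Irs2 were chosen after their values were seen. Trim63 (MuRF1) was at 78.0 CPM in IVS replicate 1, 220 CPM in IVS replicate 2 and 95.2 and 76.9 CPM with diosmin (log2 -0.79, adjusted p = 0.496), with the same high library as Foxo1. Fbxo32 (atrogin-1) was at 116 and 98.1 CPM in IVS and 132 and 170 CPM with diosmin (log2 0.49, adjusted p = 0.262), with IVS replicate 2 lowest. Foxo3 followed Foxo1 in having its highest value in IVS replicate 2 (10.3 CPM against 5.14 to 6.78 CPM), while Foxo4 was at 34.6 and 33.2 CPM in IVS and 39.1 and 46.4 CPM with diosmin (log2 0.33, adjusted p = 0.458). Pdk4, a mitochondrial kinase that spares glucose, was highest in diosmin replicate 1 (350 CPM, against 127 to 190 CPM in the other libraries). High Foxo1 in IVS replicate 2 thus went with high Trim63, Foxo3, Irs2 and Ddit4 in that library, but not with high Fbxo32 or Pdk4.

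**Figure D5:**
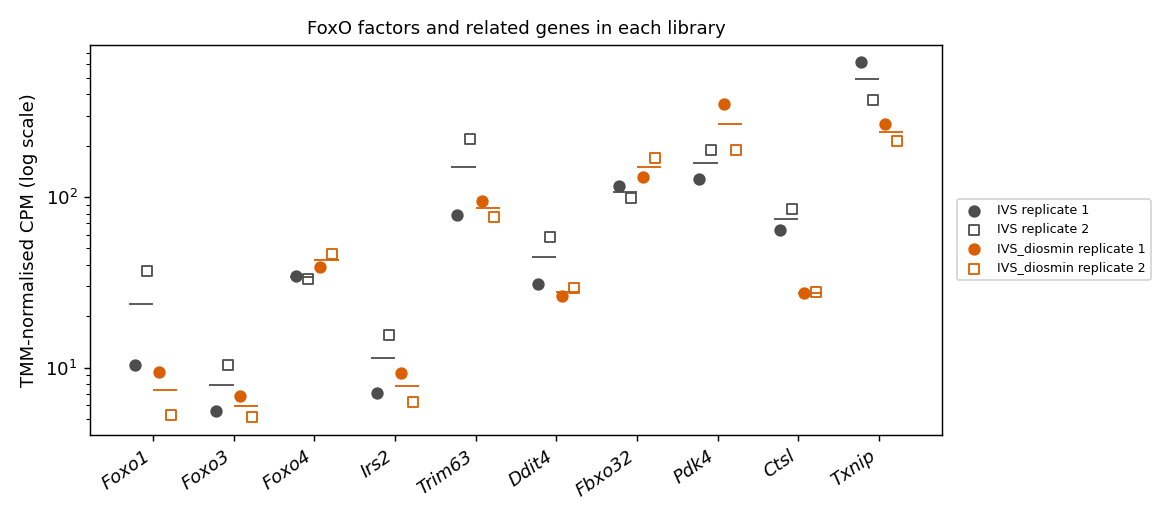
TMM-normalised CPM (log axis) of FoxO factors, FoxO targets and Ddit4 in each library, with a bar at each group mean. Foxo1, Foxo3, Irs2, Trim63 and Ddit4 are highest in IVS replicate 2, while Ctsl and Txnip are lower in both diosmin libraries.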

How the data were processed

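Each library's deposited file held whole-number read counts by gene, with no normalisation. Per the submitters' processing notes, HISAT2 2.1.0, HTSeq and mm10 were used. Annotation release and strand setting: not given in the sources used here. In each file 5 summary lines per file (72.3% to 75.1% of reads) name no gene and were left out throughout. Symbols, positions and exon lengths came from GENCODE M21 (55141 of 55401 identifiers matched), and start regions from RefSeq (GRCm38.p6).

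Groups came from the sample titles. Counts were tested with edgeR 4.0.16 in R 4.3.3: filterByExpr (13533 genes), TMM, robust quasi-likelihood fit of IVS_diosmin minus IVS, 2-sided, Benjamini-Hochberg over all tested genes, threshold 0.05. The SE is the log2 fold change over the square root of F. The biological coefficient of variation was 0.235. Replicates differed by more than sampling noise (chi-square over degrees of freedom 28.6 and 19.7). Alternatives were DESeq2 1.42.0, limma-voom (limma 3.58.1), other scalings and filters, a fit without robust estimation, a replicate block and leaving out each library.

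All 10 members are named. Each pathway list names its genes past the threshold (at most 4) and, where fewer than 2 passed, those of smallest p up to 2 in total. Other genes are marked as chosen after their values were seen. Members and lists were chosen with earlier results of these data known.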

Additional observations from a re-analysis of the deposited data

How the results depend on the processing

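The rise of Eif4ebp1 kept its direction in every alternative run, and its call in all but those that left out a library (log2 0.97 to 1.38) and the replicate block (log2 1.19, edgeR adjusted p = 0.0709). The labels state no pairing by replicate number. Deviations from the group means in IVS replicate 1 and IVS_diosmin replicate 1 had a correlation of 0.01 over genes. This does not settle whether same-numbered libraries were handled together. With the replicate block 0 of the 10 genes, 1 of the pathway genes and 93 of all genes passed. Of the 10 genes 2 passed with DESeq2, 3 without a filter on low counts, and 0 to 1 with a library left out. Of the pathway genes 8 passed with DESeq2, 16 without the filter, 2 without robust estimation, and 0 to 5 with a library left out. Of all genes 400 passed (39.8% higher), 613 with DESeq2, 919 without the filter, and 38 to 366 with a library left out. Scaling by the total gene count alone shifted the median of all genes to -0.11 and gave 115 higher and 337 lower (25.4% higher), and the median of the 10 genes was then 0.23. Reversed directions came with a library left out: Akt1 (log2 -0.33 to 0.22) at 0.00032 without IVS replicate 2 and 0.22 without IVS_diosmin replicate 1, Irs1 (-0.68 to 0.33) at 0.33 without IVS replicate 1, and Irs2 (-1.01 to 0.12) at 0.12 without IVS replicate 2. The cause was not tested. A fit without the rRNA gene, Lars2 and mitochondrial genes, chosen after seeing the data, called 398 genes and the same number of the 10 (1). A lone library was assumed to vary like the other group.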

Other observations

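The genes given here were chosen after their values were seen. Tbc1d4 (AS160), the Akt substrate that gates glucose transporter release, differed widely between the IVS libraries, at 27.4 CPM in replicate 1 and 7.80 CPM in replicate 2. It was at 46.8 and 64.4 CPM with diosmin and did not pass (log2 1.64 ± 0.60, edgeR adjusted p = 0.268). Tsc1 and Tsc2, which form the brake that Akt releases, had log2 fold changes of 0.67 (adjusted p = 0.167) and 0.44 (adjusted p = 0.317).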
